A study of Mus musculus with 20 samples.

Results

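TH17 cells are CD4 T helper cells that make interleukin-17. The comparison described here sets TH17 cells sorted from the central nervous system (CNS) against TH17 cells sorted from the ileum, the last segment of the small intestine. All RNA-seq libraries that the labels assign to these tissues entered it, 2 CNS and 2 ileum libraries, which are 4 of the 12 RNA-seq libraries and 4 of the 20 samples of the series. The other samples are RNA-seq libraries of cultured TH17 cells and 8 chromatin accessibility (ATAC-seq) samples, 4 of them from these tissues, which were not analysed here apart from 4 cultured control libraries used as a reference. Every gene row of the count tables was considered, and 12038 of 24862 genes had enough counts to be tested.

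Both tissue groups came from C57BL/6 mice and were taken as GFP+ cells by sorting of cell suspensions. The CNS cells are labelled as having infiltrated that tissue. The labels name no other allele, no treatment, no age and no disease model for either group, and they do not say which gene drives GFP. They also do not say whether the libraries of a group came from separate mice or from pools, so p-values measure the spread between these libraries, which may be technical. RNA was amplified with the SMART-Seq v4 Ultra Low Input kit. The reference cultures were 2 Ad-control libraries, from TH17(β) cells that carried the control construct of a c-Rel overexpression experiment and grew in TGF-β1 with IL-6, and 2 control libraries of a miR-21 knockout experiment, whose cells grew in IL-6, IL-1β and IL-23. Both began as naive CD4 T cells stimulated through CD3ε and CD28 with antibodies against IL-4 and IFN-γ. The miR-21 controls were prepared with another kit than the sorted cells, and the kit of the Ad-control libraries is not clearly stated.

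As background, TH17 differentiation involves the nuclear receptor RORα, encoded by Rora, which binds DNA elements with the core AGGTCA. IL-23, acting through its receptor Il23r, maintains the cells and promotes GM-CSF, encoded by Csf2, a cytokine through which T cells drive myeloid cells in CNS inflammation. In the gut, TH17 cells respond to the microbiota and make IL-17A, IL-17F and IL-22, which act on the epithelium, and retinoic acid induces the gut homing receptor Ccr9. Microglia, the resident macrophages of the CNS, are marked by Tmem119, while plasma cells that secrete antibody are abundant in the lamina propria of the ileum. Rel encodes the NF-κB subunit c-Rel, and Peli1 a ubiquitin ligase that restrains T cell activation.

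The promoters of the 3 genes at the centre of the difference are shown because each holds that core. The RefSeq tables of build GRCm38.p6 place these 250-base windows directly before the annotated starts. The Il17a window is chr1:20730655-20730904 on the plus strand, that of Il17f chr1:20784271-20784520 on the minus strand, and that of Il23r chr6:67491856-67492105 on the minus strand. The Il17f window lies within the annotated span of that gene, upstream of the start used. Sequences run 5′ to 3′ on the gene's strand, and capitals mark AGGTCA or its reverse complement TGACCT.
Il17a: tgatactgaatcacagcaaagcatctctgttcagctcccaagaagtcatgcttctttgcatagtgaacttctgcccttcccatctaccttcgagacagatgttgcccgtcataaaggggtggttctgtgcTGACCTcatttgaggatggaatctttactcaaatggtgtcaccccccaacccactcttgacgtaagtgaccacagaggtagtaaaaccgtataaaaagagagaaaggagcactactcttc
Il17f: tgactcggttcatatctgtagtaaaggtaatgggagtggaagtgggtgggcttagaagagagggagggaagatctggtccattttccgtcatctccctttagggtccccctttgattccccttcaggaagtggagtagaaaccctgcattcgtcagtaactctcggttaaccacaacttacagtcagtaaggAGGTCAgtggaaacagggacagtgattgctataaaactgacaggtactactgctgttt
Il23r: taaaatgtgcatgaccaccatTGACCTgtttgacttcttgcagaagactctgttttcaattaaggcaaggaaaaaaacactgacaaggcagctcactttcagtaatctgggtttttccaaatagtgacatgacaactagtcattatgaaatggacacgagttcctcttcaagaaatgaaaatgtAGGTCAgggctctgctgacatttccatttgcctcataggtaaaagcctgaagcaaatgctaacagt
The match begins 120 bases before the start in Il17a, on the opposite strand, and 58 bases before it in Il17f, on the gene's own strand. Il23r holds 2 matches, at 229 bases on the opposite strand and 66 bases on its own strand. On either strand the core is present in 14.0% of all 32851 windows of this length. Counted by gene, where a gene can have several windows, any window holds it in 15.8% of 27025 genes and in 5 of the 8 listed TH17 cytokine and receptor genes. A match is a description of the letters and not of binding. The 3 promoters were picked for holding the core, and the gene list was chosen with earlier results of these data known. These shares are therefore no test of enrichment, and a link to Rora was not tested. In the same build the other genes followed throughout lie at chr9:123767211-123783457 (Ccr9), chr11:54247270-54249899 (Csf2), chr11:23736847-23770969 (Rel), chr11:21091283-21150327 (Peli1) and chr5:113793729-113800396 (Tmem119), and all are annotated as protein-coding.

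The 4 libraries held 16255220 to 19228006 gene counts. Replicate 1 of each tissue detected more genes (14224 in CNS, 13927 in ileum) than replicate 2 (11545 and 10771). Genes with at least 20 counts in replicate 1 and 0 in replicate 2 numbered 876 in CNS and 1135 in ileum, against 95 and 128 the other way. Across the 12038 genes, log2 values of the CNS pair correlated at r = 0.928 and those of the ileum pair at 0.918, given as a description. Sex-linked genes also separated the tissues: Xist, transcribed from the inactive X chromosome, was at 0.11 and 0.0491 CPM in CNS and 409 and 416 CPM in ileum, and the Y-linked Ddx3y at 119.7 and 112 CPM in CNS and 10.5 and 2.6 CPM in ileum, so tissue and the sex of the mice cannot be told apart. Levels below are TMM-scaled counts-per-million values (CPM), with replicate 1 before replicate 2, and the cell type's own markers Cd4, Il17a and Il17f were detected in all 4 libraries.

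Between the tissues 1163 genes differed, 482 higher and 681 lower in CNS (edgeR's quasi-likelihood test with Benjamini-Hochberg adjustment, threshold 0.05). Those are 4% and 5.66% of the genes tested, and 9.66% in either direction, which is the background for every count below. Of these, 1035 differed at least 2-fold. The split depended on the scaling: relative to the summed counts of 16 T cell identity genes (such as Cd3e, Cd4 and Lck), 1094 were higher (9.09%) and 343 lower (2.85%), and the median of all genes moved up by 0.54 on the log2 scale. This second scale, called T-scaled below, asks how a gene changed relative to T cell transcripts, while the main scale sets it against all transcripts of the sorted sample. Without CNS replicate 2 the higher genes numbered 319, and without ileum replicate 1 they numbered 1285.

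A coarse separation of T cell genes from others used the cultured controls. Genes at 1 CPM or more in all 4 cultures made up 10193 of the tested genes and 93.7 to 97.5% of gene counts in the 4 libraries. Among them, 342 were higher and 645 lower in CNS, but T-scaled 899 were higher and 312 lower. Genes under 0.1 CPM in all 4 cultures numbered 9481, of which only 329 were tested, with 39 higher and 7 lower. All 9481 together took 1.71 and 1.74% of counts in CNS against 0.380 and 0.390% in ileum. The higher genes of that class included Trem2, Ccl12, C1qa and Siglech, genes of macrophages or microglia, and Chil3, of macrophages and neutrophils. They also included the neutrophil genes S100a8, S100a9 and Ngp, and Slc1a3, a transporter gene of astrocytes. The remaining 1516 tested genes, between these limits, split 101 higher and 29 lower. The classes do not divide cell types cleanly: Ccr9, a T cell homing receptor, was at 0.201 to 0.412 CPM in the cultures, whereas Tmem119 was at 4.92 to 19.4 CPM there.

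**Figure D1:**
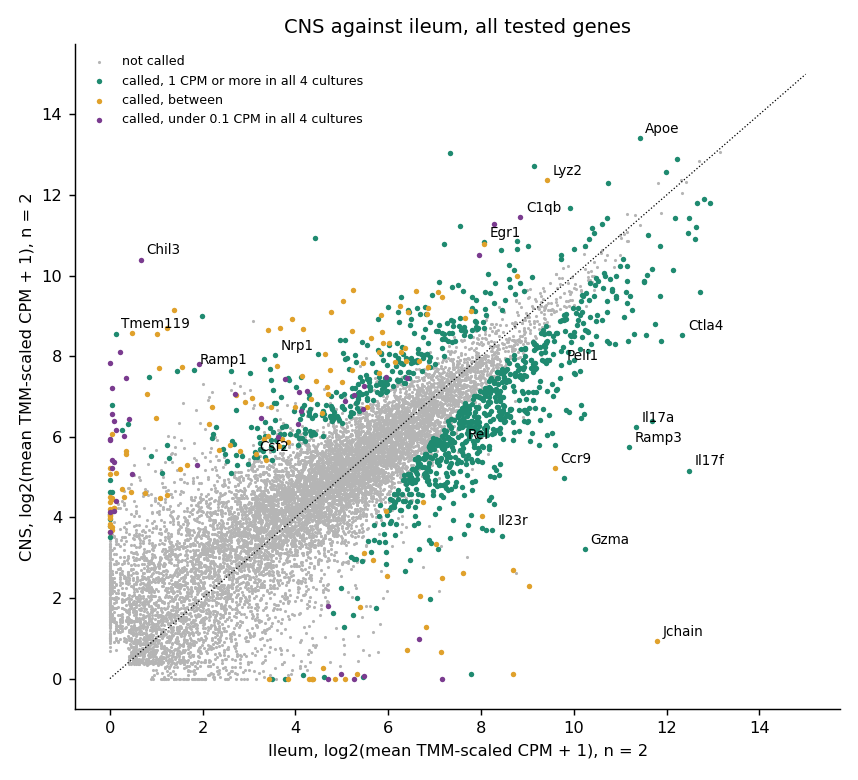
Mean level of each of the 12038 tested genes in ileum (horizontal axis) and CNS (vertical axis), as log2 of TMM-scaled CPM plus 1 over 2 libraries per tissue. Colours mark genes that passed the test by their level in the 4 cultured controls; Il17a and Il17f lie below the diagonal, and the genes absent from culture lie mostly above it (39 higher, 7 lower).

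T cell identity genes summed to a lower level in CNS on the main scale, though 10 of the 16 were not called. Their summed level was 5765 and 5940.0 CPM in CNS and 8844 and 8173 CPM in ileum. The libraries of the tissues did not overlap for 12 of the 16 genes, against 59.8% of all tested genes. Of the 16, 6 were lower and 0 higher, with a median log2 fold change of −0.53 against 0.08 for all genes. T-scaled, 3 were lower, 1 higher and the median 0.01. That scale is set by the summed counts of these same genes, so this median largely follows from the scaling and is not a result. Cd6 fell by 1.58 on the log2 scale (SE 0.179, adjusted p = 0.00758), and T-scaled its difference was −1.03. Zap70, the kinase that relays the T cell receptor signal, was at 292 and 308 CPM in CNS and 582 and 592 CPM in ileum, and its call (log2 fold change −0.97) was lost on the T scale. Cd4 was at 720.1 and 558 CPM in CNS and 779.9 and 673 CPM in ileum and was not called, with a sign that turned on the T scale (−0.18 to 0.36). Cd3d went the other way, at 347 and 392 CPM in CNS and 261 and 231 CPM in ileum. It was not called on the main scale (0.59) and was the 1 higher gene T-scaled (1.13). Cd2 differed by −0.0038 on the main scale. Macrophage markers summed to 34348 and 38574 CPM in CNS against 6389.5 and 6585 CPM in ileum. In bulk samples such as these, fewer cells of a type and less RNA per cell cannot be told apart.

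TH17 cytokines and their receptors formed the T cell list with the lowest median. Il17a was at 73.8 and 74.7 CPM in CNS and 2459.8 and 2721 CPM in ileum, a log2 fold change of −5.12 (SE 0.131, adjusted p = 0.000162 by edgeR), or −4.59 T-scaled. Il17f stood at 35.2 and 34.4 CPM in CNS and 5461 and 6075 CPM in ileum, 166-fold apart (−7.37, SE 0.13, adjusted p = 6.38e-05). Both ileum libraries were thus far above both CNS libraries and the replicates of each tissue lay close together. Il22, whose product acts on epithelial cells, was at 31.4 and 29.4 CPM against 866 and 898 CPM (−4.86, SE 0.152). Il23r was at 15 and 8.64 CPM in CNS and 313 and 290.3 CPM in ileum (−4.67, SE 0.34, adjusted p = 0.00199). The chemokine Ccl20 and its receptor Ccr6, which mark TH17 cells and draw them to barrier tissues, fell together by 4.92 and 3.22 on the log2 scale. Ccr6 was at 42.9 and 20 CPM in CNS and 269 and 317 CPM in ileum. In all, 7 of the 8 listed genes were lower and 0 higher (median −4.77), and 6 were lower T-scaled (median −4.22). The gene that dropped out was Il21, which supports B cell help and TH17 growth, with adjusted p = 0.0397 on the main scale, 0.0702 T-scaled and 0.0811 without CNS replicate 1. Il1r1, the IL-1 receptor, was the exception, at 237 and 199 CPM in CNS and 254 and 216 CPM in ileum, with overlapping libraries and a difference of −0.11 (SE 0.181).

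Transcription factors of the lineage were lower to a smaller degree. Rora was at 317 and 315 CPM in CNS and 2003 and 1787 CPM in ileum (−2.59, SE 0.123, adjusted p = 0.0008). Ikzf3, the zinc finger factor Aiolos, was at 47.9 and 62.2 CPM against 778 and 779 CPM (−3.82, SE 0.191). Also lower were Ahr, the aryl hydrocarbon receptor that drives Il22 (−2.62), Maf (−2.28) and Stat3, the transducer of IL-6 and IL-23 signals (−1.71). Batf, a partner of Irf4, was lower by 1.42 on the log2 scale, but not T-scaled. Irf4 itself was at 76.3 and 21 CPM in CNS and 223 and 137 CPM in ileum and did not pass the test (adjusted p = 0.149, but 0.00703 without CNS replicate 1). Of 11 listed factors 8 were lower and 0 higher (median −1.71), and 5 T-scaled (median −1.17). Nfkbiz, which takes part in Il17a transcription, was not called, at 623 and 518 CPM in CNS and 705 and 614 CPM in ileum, and its difference of −0.21 turned to 0.33 T-scaled.

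**Figure D2:**
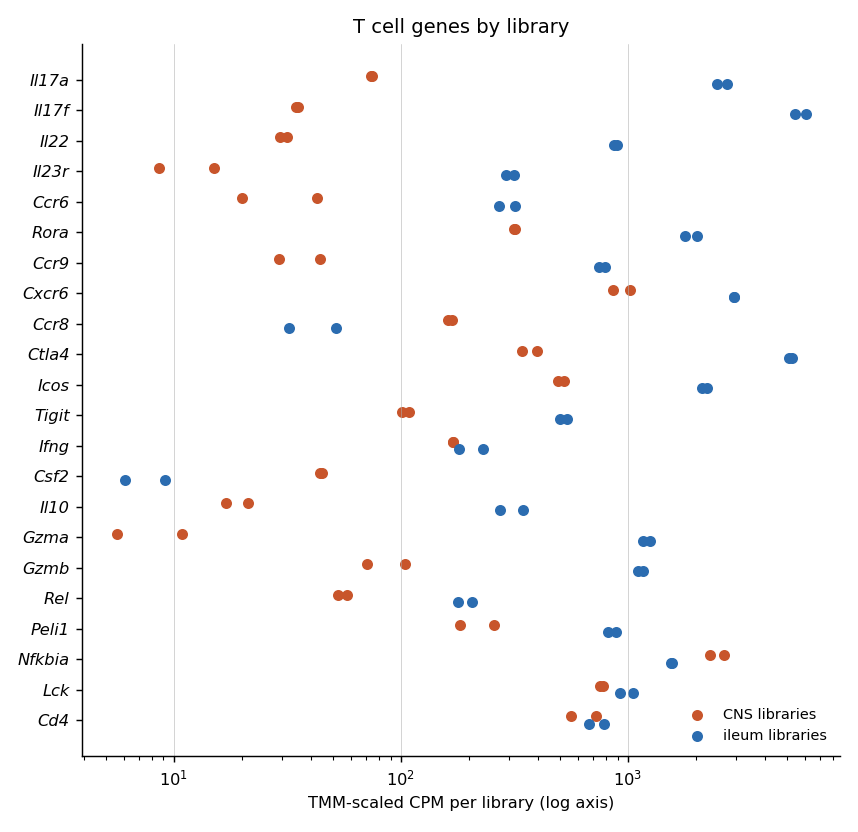
Levels of T cell genes in each of the 2 CNS and 2 ileum libraries, as TMM-scaled CPM on a log axis. Il17a, Il17f, Il23r and Ccr9 are separated widely with ileum above CNS, while Csf2 lies the other way, at 44 and 45.1 CPM in CNS and 6.1 and 9.16 CPM in ileum.

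Cytokines of other helper lineages did not follow one direction. Csf2 was at 44 and 45.1 CPM in CNS and 6.1 and 9.16 CPM in ileum, with no overlap (log2 fold change 2.54, SE 0.474, adjusted p = 0.0321), and leaving out either CNS library ended this call (adjusted p = 0.114 with the first left out, 0.141 with the second). Ifng, the TH1 cytokine, was at 169 and 169.8 CPM in CNS and 229 and 181 CPM in ileum and was not called (−0.27, SE 0.189, and 0.27 T-scaled). Il10, which restrains inflammation, was at 17 and 21.3 CPM in CNS and 343 and 273 CPM in ileum (−4.01, SE 0.247, adjusted p = 0.0013). On the main scale Csf2 was the one member that rose among 10 tested, Il10 fell with Fasl (−1.27) and Cd40lg (−1.01), and the calls of Fasl and Cd40lg were lost on the T scale. They were also lost without CNS replicate 1 (adjusted p = 0.0628 and 0.0882) or ileum replicate 1 (0.0613 and 0.101), and that of Cd40lg without CNS replicate 2 (0.0596). Lta, which encodes lymphotoxin alpha, was at 157 and 157 CPM in CNS but at 6.04 and 0.0619 CPM in the ileum libraries, a replicate gap with which it missed the threshold (adjusted p = 0.0676, but 0.000878 without ileum replicate 1 and 0.00143 without ileum replicate 2), and T-scaled it was higher (6.28, adjusted p = 0.0401). The list thus gave 1 higher and 3 lower on the main scale (median −0.81), and 2 higher and 1 lower T-scaled (median −0.27). Tnf, made by T cells and by myeloid cells alike, was at 528 and 569.8 CPM in CNS and 92.4 and 54.1 CPM in ileum (2.91, SE 0.292, adjusted p = 0.0051), and the part of the macrophage transcripts in this was not tested.

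Regulators of other lineages and of regulatory T cells were mostly not called. Tbx21, the TH1 factor T-bet, was at 32.8 and 31 CPM in CNS and 25.4 and 6.75 CPM in ileum (adjusted p = 0.491, and 0.0499 without ileum replicate 1), and Foxp3, the regulatory T cell factor, at 30 and 17.8 CPM in CNS and 20.2 and 33 CPM in ileum with overlapping libraries. Stat4, which transmits IL-12 and IL-23 signals, was at 91.2 and 76.6 CPM in CNS and 626 and 615 CPM in ileum (−2.89, SE 0.164, adjusted p = 0.00106). Of 7 regulators 1 was higher and 1 lower (median −0.19, and 0.35 T-scaled). On the regulatory T cell list of 10 genes, Nrp1 rose, and Ctla4 and Ikzf2 fell (median −0.28, and 0.25 T-scaled). Nrp1 was at 275 and 243 CPM in CNS and 7.04 and 14.6 CPM in ileum (4.58, SE 0.413). It is also made by myeloid and other cells and was at 6.16 to 27 CPM in the cultures, below both CNS libraries. Cytotoxic granzymes were lower in CNS: Gzma was at 10.9 and 5.6 CPM in CNS and 1252 and 1169 CPM in ileum (−7.20, SE 0.384), and Gzmb at 70.6 and 104 CPM in CNS and 1103 and 1168 CPM in ileum (−3.70, SE 0.232). Of the 8 listed genes of natural killer and innate lymphoid cells, Gzma among them, 4 were at 0 in both ileum libraries, such as Ncr1 and Klra8. Klrb1c was at 9.67 and 4.57 CPM in CNS and 9.66 and 5.7 CPM in ileum. Klrd1 was at 24.5 and 19.4 CPM in CNS and 1.27 and 0 CPM in ileum and was not called, with 6.26 to 22 CPM in the cultures. The part of such cells in the granzyme levels was not tested.

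Homing receptors that passed the test were, with 1 exception, higher in ileum. Ccr9 was at 29.1 and 43.8 CPM in CNS and 792 and 742 CPM in ileum, 21.0-fold apart (−4.39, SE 0.254, adjusted p = 0.00109). Cxcr6, a receptor of tissue-resident T cells, was abundant in both, at 1021 and 854 CPM in CNS and 2928 and 2926 CPM in ileum (−1.64, SE 0.125). Cxcr5, which leads cells to B cell follicles (−4.46), the lymph node receptor Ccr7 (−1.83) and Gpr183 (−1.34) were lower too. Ccr8 alone rose among the 17 tested, at 161 and 169 CPM in CNS and 32.3 and 52 CPM in ileum (1.97, SE 0.299, adjusted p = 0.0176), against 7 lower (median −1.40). T-scaled, 2 were higher and 7 lower (median −0.86). Other receptors were not called: Ccr2, shared by monocytes and effector T cells, was at 502 and 369 CPM in CNS and 427 and 409 CPM in ileum, and Cxcr3 at 127 and 168 CPM in CNS and 124 and 103 CPM in ileum. Ccr10 had 0 counts in CNS and 5.77 and 7.06 CPM in ileum and was not called (adjusted p = 0.0794).

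Integrins and residency genes moved both ways. Itgb1, the β1 chain that pairs to form VLA-4, was at 758 and 657 CPM in CNS and 54.3 and 97.5 CPM in ileum (3.22, SE 0.317, adjusted p = 0.0047). Itgb2, the β2 chain of LFA-1 and of myeloid Mac-1, rose as well (1.66, SE 0.133), in libraries where Itgam, the partner chain of Mac-1 on myeloid cells, was at 465 and 345 CPM in CNS and 23.6 and 10 CPM in ileum. Rgs1, a brake on chemokine signalling that is high in resident gut T cells, was at 809.9 and 739.8 CPM in CNS and 6676 and 6735 CPM in ileum (−3.11, SE 0.0987, adjusted p = 0.00024). Prdm1, the factor Blimp-1, fell by 2.05 on the log2 scale, and Cd69, which retains cells in tissue, by 0.70, a call lost T-scaled and without ileum replicate 1 (adjusted p = 0.0538). Itgae, which binds epithelial E-cadherin, was at 25.8 and 19.3 CPM in CNS and 55.8 and 55.7 CPM in ileum (adjusted p = 0.0806), and the gut integrin chain Itgb7 was at 879 and 744 CPM in CNS and 520.5 and 545 CPM in ileum (adjusted p = 0.0553), and higher in CNS T-scaled (1.15, adjusted p = 0.0107). The list of 16 gave 2 higher and 4 lower (median 0.23), but 6 higher and 2 lower T-scaled (median 0.78). The part of myeloid cells in the rise of Itgb1 and Itgb2, and of plasma cells in the fall of Prdm1, was not tested.

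Costimulatory and inhibitory receptors that passed the test were, with 1 exception, higher in ileum. Ctla4, the inhibitory receptor for CD80 and CD86, was at 397 and 340.0 CPM in CNS and 5116 and 5272 CPM in ileum, 14.1-fold apart (−3.82, SE 0.124, adjusted p = 0.00024). Icos was at 519.9 and 490.2 CPM in CNS and 2218 and 2113 CPM in ileum (−2.10, SE 0.11), and Tigit at 109 and 101 CPM in CNS and 501 and 539 CPM in ileum (−2.31, SE 0.151). Tox, a factor of chronically stimulated T cells, was at 14.7 and 7.36 CPM in CNS and 158 and 238 CPM in ileum (−4.17, SE 0.452). Entpd1, the ectonucleotidase CD39, was the 1 member that rose, at 152 and 162 CPM in CNS and 49.8 and 29.3 CPM in ileum (1.99, SE 0.321); microglia also make it, and the cultures had 13.2 to 15.6 CPM. Pdcd1, which encodes PD-1, was at 133 and 116 CPM in CNS and 47.9 and 73.6 CPM in ileum, not called on the main scale (adjusted p = 0.0967) and higher T-scaled (adjusted p = 0.0345). In all 5 of 17 were lower and 1 higher (median −0.86), and T-scaled 5 were lower and 2 higher.

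Quiescence genes and cytokine receptors had medians near 0 that turned sign with the scale. Lef1, a factor of naive and central memory cells, was at 97.8 and 106 CPM in CNS and 24.3 and 13.4 CPM in ileum (2.44, SE 0.383, adjusted p = 0.0195). Foxo1 (−2.47), Satb1 (−1.58) and Btg1 (−1.41), which keep T cells quiescent, were lower, so the list of 11 had 1 higher and 4 lower (median −0.03, and 0.56 T-scaled with 5 higher and 4 lower). Among 15 cytokine receptors Tgfbr1 (1.94) and Il10ra (1.82) rose, and 4 fell, among them Il21r (−2.52) and Ifngr1 (−1.52). Their median was −0.20, and 0.35 T-scaled, and Il10ra was no longer called without the first CNS library (adjusted p = 0.0956) or ileum replicate 2 (0.0597). Il10ra and Tgfbr1 are also transcribed by microglia and macrophages, whose markers rose in the same libraries, and the part of those cells was not tested. The common gamma chain Il2rg was at 1312 and 1274 CPM in CNS and 1343 and 1420.0 CPM in ileum, with a difference of −0.096 that turned to 0.44 T-scaled, and Il7r, the survival receptor, was at 265 and 279 CPM in CNS and 246 and 231 CPM in ileum, called T-scaled alone (0.73, adjusted p = 0.0345).

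**Figure D3:**
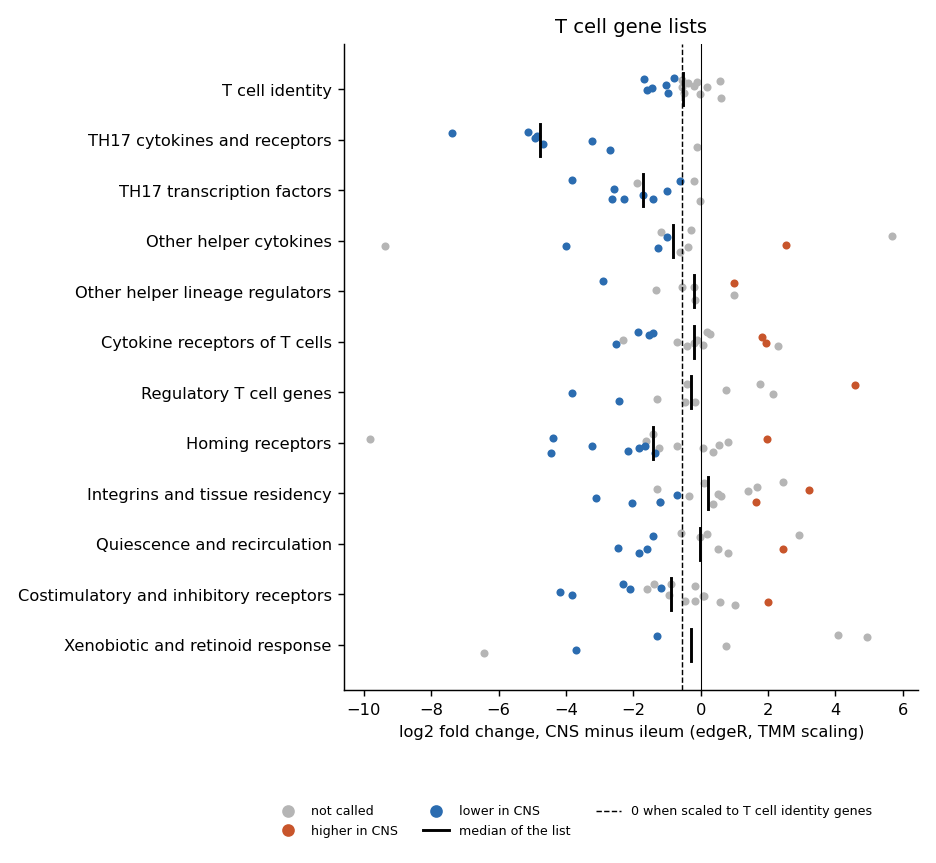
Log2 fold change of every tested member of the T cell gene lists (horizontal axis, CNS minus ileum), with the list's median as a bar. The dashed line marks where 0 falls when values are scaled to T cell identity genes; the TH17 cytokine and receptor list lies furthest left, with a median of −4.77.

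The NF-κB pathway relays signals of the T cell receptor, CD28 and the TNF receptor family, and Rel and Peli1 belong to it. Rel was at 52.8 and 58.1 CPM in CNS and 206 and 178 CPM in ileum, 3.46-fold apart (−1.79, SE 0.207, adjusted p = 0.0081). T-scaled the difference of Rel was −1.25 (adjusted p = 0.0185). Peli1 was at 257 and 182 CPM in CNS and 813 and 884 CPM in ileum, 3.87-fold apart (−1.95, SE 0.204, adjusted p = 0.00579), and −1.41 T-scaled (adjusted p = 0.0162). For both genes all ileum libraries were above all CNS libraries, and both were called in the same direction, lower in CNS. Of the other subunit genes, Relb, Nfkb2 and Rela moved likewise, at −1.87, −2.01 and −1.43 on the log2 scale. Malt1, the protease downstream of the antigen receptor (−1.99), Traf3, an inhibitor of the alternative pathway (−2.18), and Birc3 (−1.93) fell too. Nfkbia, the inhibitor IκBα and itself a target of NF-κB, was the 1 member that rose, at 2306 and 2638 CPM in CNS and 1549.6 and 1563 CPM in ileum (0.67, SE 0.11, adjusted p = 0.0224), a call lost without CNS replicate 2 (adjusted p = 0.0641). Tnfaip3, the A20 inhibitor, was lower (−1.12) on the main scale alone. Of 27 genes 16 were lower (median −1.07), and 9 T-scaled (median −0.53). The part of B, plasma and myeloid cell transcripts in the differences of this list, Rel and Peli1 included, was not tested.

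Glycolytic genes were higher in CNS where they differed. Tpi1 was at 430.2 and 441 CPM in CNS and 130.1 and 140.1 CPM in ileum (1.69, SE 0.148, adjusted p = 0.00336), and Pgam1 at 444 and 468 CPM in CNS and 170.1 and 137 CPM in ileum (1.57, SE 0.173). Ldhb, the lactate dehydrogenase chain that favours pyruvate, had the widest gap, at 160.5 and 179 CPM in CNS and 8.59 and 11.7 CPM in ileum (4.06, SE 0.29). The lactate exporter Slc16a3 rose (2.29), as did Pgk1 (1.09), Aldoa (0.64) and Pkm (0.62). Of these, Pgk1 was lost without ileum replicate 2 (adjusted p = 0.0593), Pkm without that library (0.0853) or CNS replicate 2 (0.0711), and Aldoa without either ileum library or CNS replicate 2 (0.0502 to 0.0816). Gapdh was at 2033 and 2129 CPM in CNS and 1990.0 and 2327 CPM in ileum, a difference of −0.052 that turned to 0.48 T-scaled. The count was 8 of 23 higher and 0 lower (median 0.70), with 13 higher T-scaled (median 1.25). It was 5 higher and 1 lower without CNS replicate 2, and 4 higher without ileum replicate 2. These enzymes are made by all cell types of the sample, and the part of the myeloid transcripts was not tested.

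Interferon-induced genes were also higher where they differed. Gbp2, a GTPase that attacks intracellular vacuoles, was at 498 and 470.5 CPM in CNS and 60.9 and 47.2 CPM in ileum (3.16, SE 0.198, adjusted p = 0.00132). Irgm1 (1.89), Iigp1 (2.65), Ifit2 (3.18) and Bst2 (1.76) rose with it, whereas Gbp3, at 146 and 145 CPM in CNS and 129 and 56.9 CPM in ileum, was not called (adjusted p = 0.414, but 0.0340 without ileum replicate 1). Ifit2 was lost without CNS replicate 2 (adjusted p = 0.0722) and Iigp1 without CNS replicate 1 (0.0586). Of 35 genes 7 were higher and 0 lower (median 1.08), with 13 higher T-scaled (median 1.62) and 17 higher without ileum replicate 1. In the same libraries 18 of 21 macrophage and monocyte markers rose, 20 of the 36 listed interferon genes were expressed in all 4 cultures, and the part of the myeloid transcripts was not tested. Ly6a, the Sca-1 antigen that interferon induces in activated T cells, was at 1002 and 829 CPM in CNS and 152 and 119 CPM in ileum (2.75, SE 0.195).

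Immediate early genes, which cells switch on within minutes of a stimulus, moved in both directions. Egr1 was at 1730.0 and 1896 CPM in CNS and 276 and 259 CPM in ileum (2.76, SE 0.124, adjusted p = 0.000721), and Ier3 (3.49), Zfp36 (1.74), Atf3 (1.39) and Fos (0.79) were higher in CNS. Nr4a1, an orphan nuclear receptor induced by T cell receptor signals, went the other way, at 775 and 777 CPM in CNS and 2342 and 2142 CPM in ileum (−1.53, SE 0.108, adjusted p = 0.00184), as did its relatives Nr4a2 (−1.47) and Nr4a3 (−2.37). Junb, an AP-1 subunit like Fos, was at 3318 and 3808 CPM in CNS and 6444 and 6481 CPM in ileum, lower on the main scale (−0.86, adjusted p = 0.00806) but not T-scaled (−0.32). The part of macrophage and microglia transcripts in the levels of Egr1, Ier3, Zfp36, Atf3 and Fos was not tested. The list of 20 gave 8 higher and 5 lower (median 0.66), and 11 higher and 3 lower T-scaled; without CNS replicate 2 it gave 5 higher and 7 lower. Crem, a cAMP-responsive repressor, was at 76.2 and 90.7 CPM in CNS and 3228 and 3344 CPM in ileum, 39.4-fold apart (−5.30, SE 0.148). Heat shock genes fell in 3 of 8 cases and rose in 0 (median −0.92): Hspa1a was at 12.5 and 12.3 CPM in CNS and 287 and 231 CPM in ileum (−4.39), its near-identical neighbour Hspa1b at −5.34, which makes the division of reads between the pair uncertain, and Hsp90aa1 at −1.32. Of 36 cell cycle genes 2 were lower and 0 higher (median −0.14, and 0.41 T-scaled), namely Cenpa (−1.67) and Hmgb2 (−1.10, not called T-scaled), while the proliferation marker Mki67 was not called, at 39.4 and 23.5 CPM in CNS and 65.4 and 43.9 CPM in ileum. Without ileum replicate 1, 4 cell cycle genes were higher.

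**Figure D4:**
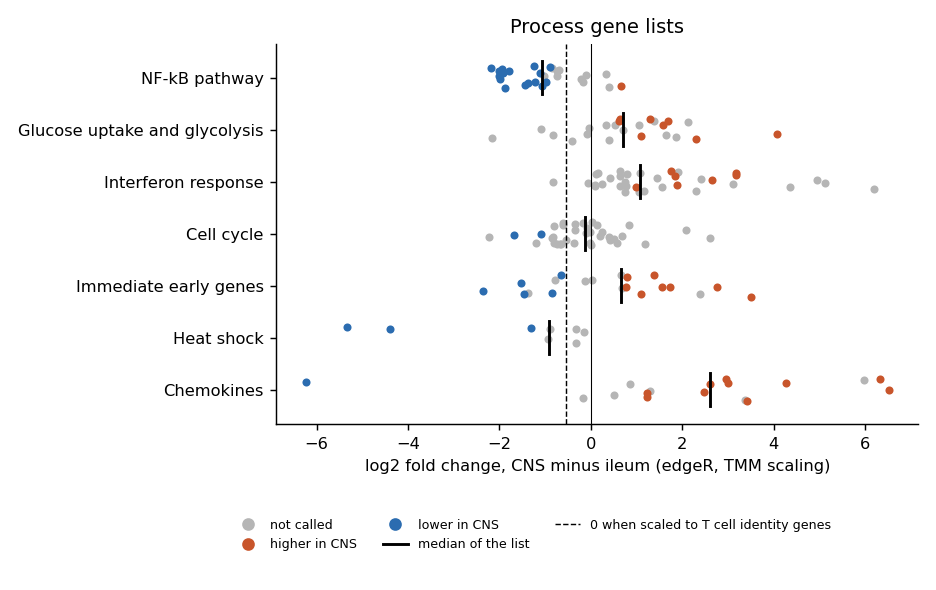
Log2 fold change (CNS minus ileum, horizontal axis) of every tested gene in the pathway and process lists, with the list's median as a bar and a dashed line where 0 falls when scaled to T cell identity genes. NF-κB genes lie mostly to the left (median −1.07), and glycolysis and interferon genes mostly to the right (medians 0.70 and 1.08).

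Transcripts of other cell types were present in both sorted populations. The 12 microglia markers summed to 4266 and 4407 CPM in CNS and to 128 and 127 CPM in ileum. Tmem119 was at 376 and 376 CPM in CNS, while the ileum libraries held 3 counts together, a ratio of 3894 (95% counting interval 1332 to 18884). The cultured controls, which hold no CNS tissue, had 4.92 to 19.4 CPM of it, above both ileum libraries and below both CNS libraries. Siglech (149.8 and 146 CPM in CNS, 1 count in ileum), the lipid receptor Trem2 (257 and 292 CPM in CNS and 0.201 and 0.124 CPM in ileum) and P2ry12 (216 and 210.2 CPM in CNS and 3.82 and 0.0619 CPM in ileum) were likewise higher in CNS than in ileum. Of the 12, 9 were higher and 0 lower in CNS, with a median of 6.41, and 11 were higher T-scaled.

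Macrophage and monocyte markers were abundant in both tissues, with 18 of 21 higher in CNS and 0 lower (median 2.52). Lyz2, lysozyme of myeloid cells, was at 5241 and 5325 CPM in CNS and 634 and 747 CPM in ileum, 7.65-fold apart (2.94, SE 0.12, adjusted p = 0.000483), and at 0 to 0.163 CPM in the cultures. Apoe, a lipid carrier made by macrophages and glia, was at 9433 and 12266 CPM in CNS and 2729.6 and 2762 CPM in ileum and at 1.51 to 2.32 CPM in the cultures. The complement genes C1qa, C1qb and C1qc rose by 2.57, 2.60 and 3.0 on the log2 scale, and Csf1r, the growth factor receptor of macrophages, by 2.72. Ctss, a lysosomal protease, was at 6469 and 6923 CPM in CNS and 528 and 601 CPM in ileum (3.57, SE 0.116). Even in ileum the level of C1qa, 242 and 250.1 CPM, stood against 0 counts in all 4 cultures. Relative to T cell identity genes, 19 macrophage markers were higher.

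Chemokine genes that passed the test were, with 1 exception, higher in CNS like the myeloid markers. Ccl12, a monocyte attractant made by macrophages and microglia, was at 201 and 248 CPM in CNS and 3.09 and 2.54 CPM in ileum (6.32, SE 0.288), and Ccl3 (3.01), Ccl4 (2.60) and Cxcl2 (1.23) rose too, as 4 of 10 higher genes among 17. Cxcl3 was the single lower gene, at 6.87 and 4.08 CPM in CNS and 411 and 416 CPM in ileum, 75.7-fold apart (−6.24, SE 0.325). The list's median was 2.60. Since Ccl3 and Ccl4 are made by T cells and macrophages alike, their source cannot be told apart here.

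Neutrophil markers were a smaller signal, 443 and 407 CPM in CNS and 82.2 and 64.5 CPM in ileum when summed. Most of the ileum sum was Mmp9, a protease of several cell types, at 30.8 and 3.68 CPM in CNS and 70.4 and 64 CPM in ileum (−1.97, not called). Of 13 tested genes 5 were higher (median 8.58, or 6.44 with the 6 genes at 0 in ileum set to their bound), and 8 without ileum replicate 1. S100a8, a calcium-binding alarmin, was at 89 and 83 CPM in CNS and 0.537 and 0.124 CPM in ileum, and Ngp, a granule protein, was at least 631-fold higher in CNS against a floor of 3 counts over the ileum libraries. Chil3, a chitinase-like protein of alternatively activated macrophages and neutrophils, was at 1446 and 1247 CPM in CNS and 0.671 and 0.495 CPM in ileum (11.16, SE 0.241, adjusted p = 9.48e-05). It had 0 counts in all 4 cultures.

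Antigen presentation genes did not follow the microglia and macrophage lists. MHC class II transcripts summed to 9971 and 11574 CPM in CNS and to 10758 and 11579 CPM in ileum. H2-Aa was at 1455 and 1478 CPM in CNS and 1602 and 1762 CPM in ileum (−0.20, and 0.34 T-scaled), and the invariant chain Cd74 at 4740.0 and 5795 CPM in CNS and 4801 and 5363 CPM in ileum. The exceptions were H2-DMa, which loads peptides (1.36), and Ciita, the class II activator (2.17, adjusted p = 0.0436), 2 of 10 higher. The Ciita call ended without either CNS library (0.177 and 0.166) or ileum replicate 2 (0.0593). Of 6 dendritic cell markers 0 were called by edgeR on either scale, 1 had an unadjusted p under 0.05 on the main scale, and DESeq2 called 0 higher and 1 lower.

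B and plasma cell transcripts that passed the test were higher in ileum. The list summed to 76.1 and 81.6 CPM in CNS and to 4259 and 4024 CPM in ileum, and 6 of 14 were lower and 0 higher in CNS (median −6.37, or −6.03 with the 4 tested genes at 0 in CNS set to their bound). T-scaled, 6 were lower and Blnk was higher. Jchain, the joining chain of secreted antibody, made up most of that sum, at 0.824 and 0.982 CPM in CNS and 3626 and 3450.4 CPM in ileum (−11.92, SE 0.176, adjusted p = 4.9e-05). The B cell antigen Ms4a1, at 0 counts in CNS, was at least 425-fold lower there. Cd79a, the receptor's signalling chain, was at 0.714 and 0.54 CPM in CNS and 95.6 and 72.6 CPM in ileum, and Sdc1, a plasma cell antigen, at 9.61 and 14.2 CPM in CNS and 290.0 and 257 CPM in ileum. The cultured controls had 21.9 to 88.8 CPM of Sdc1, above both CNS libraries and below both ileum libraries. Cxcr5, Ccr6, Ccr7, Ccr9 and Prdm1, all lower in CNS above, are also transcribed by B or plasma cells. The part of those cells in their differences, and in those of Ikzf3 and Il10, was not tested.

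Markers of the tissues' structural cells were at 0 for many genes but not for all. Of 26 intestinal epithelium genes 18 were at 0 in both CNS libraries and 13 at 0 in both ileum libraries, with Fabp1 and Krt8 at 0 in all 4. The 1 called member, Lyz1 (1.55), is near-identical to Lyz2, its reads cannot be assigned with certainty, and its call ended without either CNS library (adjusted p = 0.0634 and 0.117). Of 20 neuron and glia genes Mog, Olig1, Olig2 and Sox10 were at 0 in every library, and Slc1a3, a glutamate transporter of astrocytes, was the 1 higher gene of 7 tested, at 21.8 and 18.8 CPM in CNS, a call that ended without either CNS library (adjusted p = 0.113 and 0.0931). Most of the neural sum, which was 245 to 303 CPM over the 4 libraries, came from Cnp (158 and 163 CPM in CNS and 135 and 157 CPM in ileum) and Mbp (106 and 84.5 CPM in CNS and 113 and 86.9 CPM in ileum), neither called. The cultured controls, which hold no CNS tissue, also had both, Cnp at 145 to 509 CPM and Mbp at 47.9 to 125 CPM. Stroma and endothelium genes summed to 89.1 and 71.8 CPM in CNS and 317 and 271 CPM in ileum, with Adamdec1 the 1 lower gene of 5 tested. Mast cell genes Mcpt1, Mcpt2, Mcpt4, Tpsb2 and Fcer1a were at 0 in every library, while Kit, on mast cells and innate lymphoid cells, was at 6.92 and 12.7 CPM in CNS and 156 and 78.8 CPM in ileum (−3.58, SE 0.517). Siglecf, on eosinophils and some macrophages, was at 22.4 and 12.6 CPM in CNS and at 0 in ileum, and was not called without CNS replicate 1 (adjusted p = 0.106). Prg2, an eosinophil granule gene, had 0 counts in CNS and 5.9 and 7.55 CPM in ileum (adjusted p = 0.0748).

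**Figure D5:**
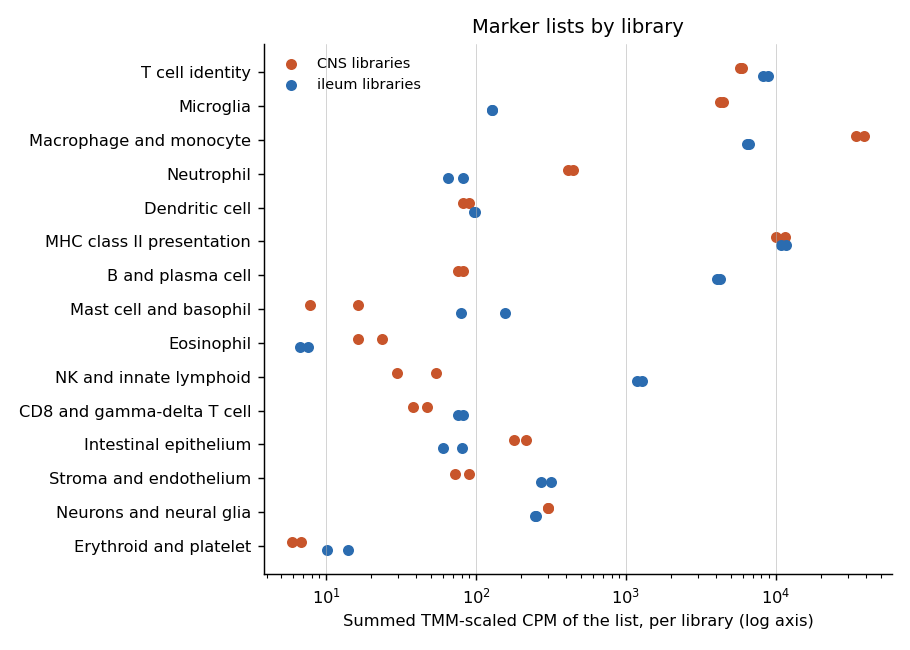
Summed TMM-scaled CPM of each marker list in every library, on a log axis, with CNS and ileum libraries in separate colours. Microglia, macrophage and neutrophil lists lie higher in CNS, the B and plasma cell list higher in ileum, and T cell identity within 5765 to 8844 CPM in all 4.

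Genes with the widest gaps among those the cultures express were named by rule. Higher in CNS were Syngr1 (ratio 3420, 95% counting interval 613 to 135101, with 1 ileum count), Tmem119, Sort1, a sorting receptor of lysosomes (at least 300-fold), Pctp, Jcad and Phyhd1, of which Phyhd1 was at 64.6 and 78.4 CPM in CNS and 0.402 and 0 CPM in ileum. The Jcad call ended without either CNS library (adjusted p = 0.0527 and 0.119) and the Pctp call without CNS replicate 2 (0.0843). Lower in CNS were Pgf, placental growth factor, with 3 counts in CNS and 236 and 201 CPM in ileum (ratio 2801, 958 to 13588), Ccdc30, the gap junction gene Gja1, Gzma, and Ramp3, which tunes the adrenomedullin and calcitonin gene-related peptide receptor. Ramp3 was at 48.7 and 56.9 CPM in CNS and 2323 and 2345 CPM in ileum (−5.47, SE 0.148, adjusted p = 0.000162). Among genes absent from culture, complement C4b was at 210.5 and 246 CPM in CNS and 0 in ileum (at least 2375-fold), and coagulation factor F10 was at least 634-fold higher. On the ileum side, Adamdec1, a protease of intestinal stroma and macrophages, was at 0 in CNS and 164 and 121 CPM in ileum (at least 1822-fold lower in CNS), and Pla2g2d, a secreted phospholipase, was at 49 and 38 CPM in ileum with 2 counts in CNS.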

How the data were processed

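Counts per gene were deposited by the authors as HTSeq tables, 1 per library. Per the submitters' processing notes the tools included TopHat2 2.1.0 and HTSeq 0.11.0, Trim Galore 0.4.4 and CASAVA 1.4, with build mm10. Which step each tool served, the annotation and the strand setting were not given in the sources used here, so overlapping and antisense genes cannot be told apart. Summary lines of the tables (17.3 to 23.1% of all reads counted) were removed.

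The 2 CNS and 2 ileum libraries were fitted alone in edgeR 4.0.16 (R 4.3.3) with filterByExpr, TMM scaling, the two-sided quasi-likelihood F test and Benjamini-Hochberg adjustment at 0.05. Groups of 2 leave 2 residual degrees of freedom, and an exact permutation test could not go below p = 0.333. SEs were derived from the fold change and its F statistic and so restate that test. The script was tested on simulated data. For a gene at 0 in a group, folds used a floor of 3 counts for that group's libraries together, and intervals (95%) and floors cover counting error only, since PCR copies carried no molecular identifiers.

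Members and all 34 gene lists (503 distinct genes, of which 1 was not matched in the tables) were chosen with earlier results of these data known. Named genes were 8 given markers, the 3 members of each list with the highest level, up to 4 called members with the smallest p, and the largest changes with a mean of at least 5 CPM and no overlap between groups, 10 each way among genes expressed in culture and 6 each way among genes absent there. Other genes named, such as Tnf, Ccr8, Crem and Ramp1, were chosen after their values were seen. Promoter windows came from RefSeq (GRCm38.p6), in which 11787 of the 12038 tested symbols were found. Alternatives were DESeq2 1.42.0, other scalings, no count filter, genes expressed in culture only, a replicate block and leaving out each library. Some genes that the naming rule gave are not reported here.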

Additional observations from a re-analysis of the deposited data

How the results depend on the processing

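DESeq2 called 1210 genes higher and 1330 lower, leaving out the count filter 1113 and 1300, and scaling to T cell identity genes 1094 and 343, against 482 and 681. Leaving out 1 library gave 319 to 1285 higher genes, and 531 to 724 lower. Of the 1163 calls, 825 were kept with their direction on the T scale, 814 to 977 with 1 library left out and 1161 by DESeq2, with 0 in the opposite direction in any alternative. Shared replicate numbers are not said to pair the samples, and the deviations of same-numbered libraries correlated at only 0.0785; a fit with the replicate number as a block called 534 higher and 775 lower. Library sizes alone raised the median of all genes by 0.20 (log2) and the T scale by 0.54. Among the genes named by rule or chosen later, those whose sign turned took these log2 fold changes. None of them was called in the reported fit. Genes outside that set were not listed, and Cd2 and Cd3g, for example, also turned T-scaled (0.54 and 0.42). T-scaled they were Cd4 0.36, Foxp3 0.37, Gapdh 0.48, Gata3 0.35, H2-Aa 0.34, H2-Ab1 0.35, Hspa8 0.22, Ifng 0.27, Il1r1 0.44, Il2rg 0.44, Klrb1c 0.45, Lat 0.029, Lck 0.17, Mbp 0.47, Nfkbiz 0.33 and Tnfrsf18 0.089. With library sizes alone they were Cd4 0.019, Foxp3 0.043, Gapdh 0.15, Gata3 0.0090, H2-Aa 0.0011, H2-Ab1 0.013, Il1r1 0.098, Il2rg 0.10, Klrb1c 0.10 and Mbp 0.13. With 1 library left out the ranges were Ccr2 −0.21 to 0.23, Cd74 −0.14 to 0.15, Dusp1 −0.062 to 0.078, Epcam −8.71 to 7.89, Foxp3 −0.62 to 0.24, Gapdh −0.16 to 0.063, Il1r1 −0.27 to 0.017, Itgax −0.052 to 0.50, Klrb1c −0.78 to 0.32 and Mbp −0.28 to 0.13. Leaving out a library leaves its group with 1, assumed to vary like the other group. The cause of these changes was not tested. With 2 libraries a group, genes at 0 in 1 replicate, such as Epcam, carried little information.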

Other observations

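A pair of receptor partners differed in opposite directions. Ramp1 and Ramp3 encode accessory proteins that set whether the receptor Calcrl binds calcitonin gene-related peptide or adrenomedullin. Ramp1 was at 211 and 192 CPM in CNS and 1.54 and 3.53 CPM in ileum (6.30, SE 0.469, adjusted p = 0.00209 by edgeR), 78.9-fold apart, with 40.7 to 279 CPM in the cultured controls. Ramp3 was 44.2-fold apart the other way (−5.47), with 15.2 to 27.8 CPM in culture. Calcrl was at 10.4 and 0.786 CPM in CNS and 9.93 and 23.1 CPM in ileum and was not called (adjusted p = 0.561). Ramp1 and Calcrl were singled out after their values were seen, and which cells of the samples carried them was not tested.

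Xenobiotic and retinoid response genes were measured in part, with 6 of 12 tested. Abcb1b, a drug efflux pump, was at 10.7 and 7.76 CPM in CNS and 111 and 128 CPM in ileum (−3.70, SE 0.324, adjusted p = 0.00336). Its paralog Abcb1a, which protects T cells from bile acids in the ileum, was at 10.1 and 0.147 CPM in CNS and 462 and 406 CPM in ileum and missed the threshold (adjusted p = 0.0516), although with any 1 library left out it passed (5.98e-05 to 0.0406), and reads shared by the 2 paralogs make their division uncertain. Tiparp, induced by the aryl hydrocarbon receptor, was lower (−1.30) but not T-scaled. Of the 6 tested 2 were lower and 0 higher (median −0.28, and 0.27 T-scaled).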
